A study of Homo sapiens with 10 samples.

Results

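Footprint levels of GPX4, 8 further selenoprotein genes and SECISBP2 were examined, 10 genes of the 20289 in the deposited table, each chosen by its Ensembl gene ID. The peroxidases were GPX4 (ENSG00000167468), GPX1 (ENSG00000233276), GPX2 (ENSG00000176153) and GPX3 (ENSG00000211445). The others were SELENOP (ENSG00000250722), SELENOW (ENSG00000178980), SELENOS (ENSG00000131871), SELENOK (ENSG00000113811), TXNRD2 (ENSG00000184470) and SECISBP2 (ENSG00000187742), and all 10 passed the filter on low values, GPX2 only through its CFPAC-1 libraries. Ribo-seq, which sequences the mRNA pieces covered by ribosomes, had been run on 10 libraries of 2 human pancreatic ductal adenocarcinoma lines. PANC-1 was represented by 4 libraries with 1 µM IKE and 2 with 0.1% DMSO, and CFPAC-1 by 2 libraries with 10 µM IKE and 2 with 0.1% DMSO. IKE, imidazole ketone erastin, is an erastin derivative that blocks cystine import. The labels give 24 h of exposure, the extraction protocol 5 consecutive days, and in each group dead cells were washed away, so that survivors were sequenced. IKE doses differed between the lines, and no dose was used in both.

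Selenoproteins carry selenocysteine, which is inserted at a UGA codon that would otherwise stop translation. Decoding needs a hairpin in the mRNA, the SECIS element, to which SECISBP2 binds and recruits the elongation factor that brings selenocysteyl-tRNA. GPX4 reduces phospholipid hydroperoxides with glutathione and so holds back ferroptosis, an iron-dependent death by lipid peroxidation. Because erastin-type compounds starve cells of cystine and hence of glutathione, they leave GPX4 short of its reducing agent. The questions addressed were what footprint level each of these genes had in either line and whether that level differed in cells that survived IKE. Levels were given per gene, so footprints before and after the UGA codon were not told apart.

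The differences that passed the threshold lay between the lines. Called lower in PANC-1 than in CFPAC-1 were 4 of the 10 genes, GPX2, SELENOP, GPX1 and GPX3, against 18.5% of tested genes. GPX2 passed the filter only through its CFPAC-1 libraries, and the GPX1 and GPX3 calls were lost in some alternatives. No difference between the lines was detected for GPX4. With IKE, 0 of the 10 genes passed the threshold in CFPAC-1, against 0.00762% of all tested genes. In PANC-1 0 of the 9 with a usable value passed, against 0.0152%. Calls with IKE were thus rare over all genes. Of the summed peroxidase footprints GPX4 held most in each PANC-1 library, while GPX4, GPX2 and GPX1 each held a large part in each CFPAC-1 library.

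The promoters of 3 genes are shown because GPX2 and SELENOP had the widest differences between the lines and GPX4 had none that was detected. Each is the 250 bases before the outermost annotated start, on the gene's own strand, from RefSeq (GRCh38.p14). The windows are chr14:64942746-64942995 for GPX2, chr5:42811893-42812142 for SELENOP and chr19:1103744-1103993 for GPX4. Capitals mark the core of the antioxidant response element, TGACNNNGC, on either strand.
GPX2: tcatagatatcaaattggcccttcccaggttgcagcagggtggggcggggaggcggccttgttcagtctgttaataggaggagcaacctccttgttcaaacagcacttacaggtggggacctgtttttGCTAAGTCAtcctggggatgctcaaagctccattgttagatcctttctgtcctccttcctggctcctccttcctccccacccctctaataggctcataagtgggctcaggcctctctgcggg
SELENOP: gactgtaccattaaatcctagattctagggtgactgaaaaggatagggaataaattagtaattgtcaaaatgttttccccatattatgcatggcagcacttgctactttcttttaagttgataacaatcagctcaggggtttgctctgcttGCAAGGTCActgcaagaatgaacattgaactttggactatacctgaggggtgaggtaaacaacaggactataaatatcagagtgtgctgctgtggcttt
GPX4: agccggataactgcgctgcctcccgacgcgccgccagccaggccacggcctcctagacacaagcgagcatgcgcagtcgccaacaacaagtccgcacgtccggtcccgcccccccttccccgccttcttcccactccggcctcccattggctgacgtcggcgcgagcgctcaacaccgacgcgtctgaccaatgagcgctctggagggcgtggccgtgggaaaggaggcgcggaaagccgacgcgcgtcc
The match was GCTAAGTCA in GPX2, 113 bases before the start, and GCAAGGTCA in SELENOP, 90 bases before it. The GPX4 window held none. All 10 genes matched by symbol and had 15 windows in all, of which 4 held the core, 1 each of GPX2, SELENOP, SELENOK and SECISBP2, against 10.9% of all 35116 windows of this length. The amino acid response element (TGATGNAAN) was in 0 of the genes' 15 windows and in 3.13% of all. The CCAAT box (CCAAT) was in 7 windows of 6 genes, GPX4 and GPX2 among them, and in 32.0% of all windows. The TATA box (TATAAA) was in those of SELENOP and TXNRD2 and in 10.7% of all. CCACG, which is part of the endoplasmic reticulum stress element, was in 8 windows of 5 genes and in 33.5% of all windows. A further 4 motifs had 0 matches among the genes, namely the HNF1 motif (0.0484% of all windows), the full endoplasmic reticulum stress element (0.074%), the cAMP response element TGACGTCA (1.65%) and the sterol response element TCACNCCAC (0.883%). Both strands were searched, the full stress element overlaps the CCAAT box and CCACG, and a match of letters is a description, not a binding site.

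Library quality bears on all values below. Between 12933 and 14424 genes were above 0 per library. Log2 levels correlated at 0.899 to 0.965 between PANC-1 IKE replicates, at 0.939 between PANC-1 DMSO replicates, and at 0.979 and 0.981 within the CFPAC-1 groups. The residual SD of log2 levels, median over 13125 tested genes, was 0.481 in PANC-1, against 0.18 in CFPAC-1. For GPX4 it was 0.658 in PANC-1, against 0.0664 in CFPAC-1, so PANC-1 values carry the larger error. PANC-1 IKE replicates 2, 3 and 4 gave 16.2%, 12.2% and 23.1% of their FPKM to their 10 top genes, while the other 7 libraries gave 8.51% to 9.64%. The part of this imbalance in the results was not tested. Levels are FPKM, which scale reads by gene length and library total. Whether that length is the whole transcript or its coding part is not stated by the sources at hand, and every order of genes, share and ratio of genes below depends on it.

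GPX4 lies at chr19:1103994-1106779 (GRCh38.p14, as for all gene spans given). Its level in the PANC-1 DMSO libraries was 627 and 237 FPKM, and in the CFPAC-1 DMSO libraries 258 and 269 FPKM. One PANC-1 library lay above and the other below both CFPAC-1 libraries. The log2 difference, PANC-1 over CFPAC-1 on the log2(FPKM + 1) scale used throughout, was 0.55 ± 0.46 (SE; adjusted p = 0.402), with a 95% interval from -0.48 to 1.57. GPX4 ranked between 267 and 879 from the top in the 6 PANC-1 libraries and between 908 and 1062 in the 4 CFPAC-1 libraries. Numbers of detected genes differed between libraries, and the share of detected genes below GPX4 overlapped, at 93.3% to 97.9% in PANC-1 and 92.6% to 93.6% in CFPAC-1.

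GPX1, the abundant cytosolic peroxidase that removes hydrogen peroxide, lies at chr3:49357176-49358353. PANC-1 DMSO libraries held 98.8 and 73.2 FPKM, whereas CFPAC-1 DMSO libraries held 208 and 229.7 FPKM. The log2 difference was -1.35 ± 0.38 (SE; adjusted p = 0.0215), with no overlap of the groups. With IKE the PANC-1 libraries held 55.2, 94.99, 98.3 and 144 FPKM, whereas the CFPAC-1 libraries held 213 and 207 FPKM, so all 6 PANC-1 libraries lay below all 4 CFPAC-1 libraries. The call was lost without CFPAC-1 DMSO replicate 1 (limma adjusted p = 0.0858) or 2 (0.115), or without PANC-1 DMSO replicate 2 (0.103).

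GPX2, the peroxidase of gastrointestinal epithelium, lies at chr14:64939158-64942745. Both PANC-1 DMSO libraries list it at 0, whereas CFPAC-1 DMSO libraries held 215 and 256 FPKM. Because it passed the filter on low values only through its CFPAC-1 libraries, its call as lower in PANC-1 was built in. The p-value is therefore left out. No fold is given, since the PANC-1 libraries are listed at 0. With IKE, PANC-1 replicates 1 to 4 had 0.77, 0, 0 and 1.86 FPKM, whereas CFPAC-1 replicates had 336 and 357 FPKM. Both PANC-1 libraries above 0 also held other CFPAC-1 genes. A set of 25 further genes was taken that reached 200 FPKM in each CFPAC-1 library but were 0 in PANC-1 DMSO replicate 2. For these, PANC-1 IKE replicates 1 and 4 were at 0.162% and 0.872% of the CFPAC-1 level, replicates 2 and 3 at 0.0019% and 0.0191%, and DMSO replicate 1 at 0.216%. GPX2 itself was at 0.265% and 0.639% of its mean CFPAC-1 level in IKE replicates 1 and 4. The part of such traces in the GPX2 values was not tested.

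GPX3, the secreted plasma peroxidase, lies at chr5:151020591-151028988. It had 27.2 and 7.92 FPKM in PANC-1 DMSO libraries, against 57.8 and 60.1 FPKM in CFPAC-1 DMSO libraries. The log2 difference was -1.92 ± 0.65 (SE; adjusted p = 0.0434). The groups did not overlap, and with IKE the 4 PANC-1 libraries ranged from 7.03 to 29.4 FPKM and the CFPAC-1 libraries were at 55.4 and 51.1 FPKM. This call lay close to the threshold. It was lost in the fit of the 4 DMSO libraries alone (limma adjusted p = 0.0764) and in 7 of 10 fits with 1 library removed (limma adjusted p up to 0.271). Without PANC-1 DMSO replicate 2 the log2 difference was -1.09.

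SELENOP, the secreted protein that carries selenium between tissues, lies at chr5:42799880-42811892. It had 3.08 and 0 FPKM in PANC-1 DMSO libraries, against 16.6 and 21.4 FPKM in CFPAC-1 DMSO libraries. The log2 difference was -3.30 ± 0.63 (SE; adjusted p = 0.00269). Its size depends on the pseudocount, since a PANC-1 library was at 0, and was -5.07 and -1.91 with 0.1 and 5 FPKM. With IKE the PANC-1 libraries held 0.59, 2.61, 0.62 and 1.52 FPKM and the CFPAC-1 libraries 25.5 and 30.3 FPKM. All 6 PANC-1 libraries were below all 4 CFPAC-1 libraries.

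For the other 5 genes no difference between the lines was called. They lie at chr19:47778703-47784682 (SELENOW), chr15:101270809-101277485 (SELENOS), chr3:53884417-53891859 (SELENOK), chr22:19875522-19941818 (TXNRD2) and chr9:89318500-89367117 (SECISBP2). SELENOW, a small selenoprotein with a thioredoxin-like fold, had 69.6 and 34.1 FPKM in PANC-1 DMSO libraries, against 90.2 and 124 FPKM in CFPAC-1 DMSO libraries. The log2 difference of -1.10 ± 0.63 (SE; adjusted p = 0.207) did not pass the threshold. It did pass when PANC-1 IKE replicates 2 and 4 were left out (limma adjusted p = 0.0349). SELENOS and SELENOK, both in the machinery that clears misfolded proteins from the endoplasmic reticulum, had log2 differences of -0.15 ± 0.31 and 0.07 ± 0.35 (SE; adjusted p = 0.748 and 0.902). TXNRD2, the mitochondrial thioredoxin reductase, and SECISBP2 had differences of -0.34 ± 0.36 and -0.62 ± 0.42 (SE; adjusted p = 0.499 and 0.294).

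In this comparison of the lines 4 of the 10 genes were called lower in PANC-1 and 0 higher, against 18.5% of all tested genes called lower, 15.1% called higher and 33.6% in all. GPX2 is among the 4, and its call was built in by the filter. Under quantile normalization the calls over all genes tipped the other way, with 2354 higher and 2170 lower in place of 1984 higher and 2426 lower. The same 4 had an unadjusted p under 0.05, against 43.3%. DMSO values showed no overlap between lines for 7 of the 10 genes, all lower in PANC-1, against 70.6% of all tested genes (36.8% lower and 33.8% higher), so that the count in both directions is near the background. Over all 6 PANC-1 and all 4 CFPAC-1 libraries, 4 genes lay lower in PANC-1 without overlap, against 25% of tested genes, and 0 lay higher, against 19.4%. These were GPX1, GPX2, GPX3 and SELENOP, with the same limit for GPX2. The median log2 difference was -0.62 over the 9 genes other than GPX2 and -0.03 over all tested genes.

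**Figure D1:**
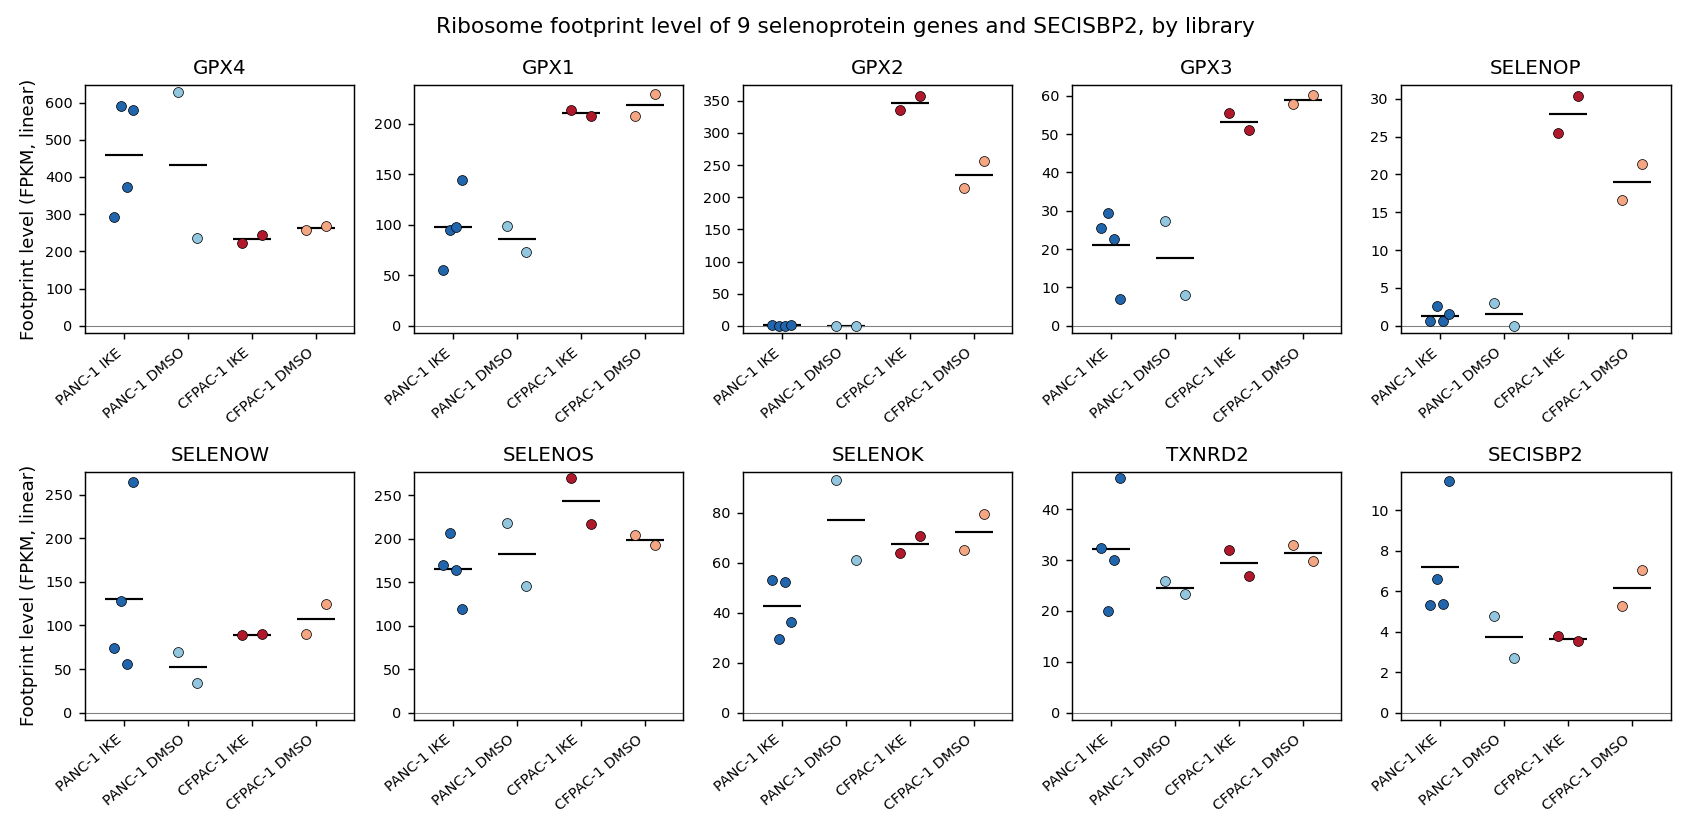
Footprint level in FPKM on a linear axis for each of the 10 genes, with each point 1 library and each line the group mean, in PANC-1 IKE (4 libraries), PANC-1 DMSO (2), CFPAC-1 IKE (2) and CFPAC-1 DMSO (2). The 6 PANC-1 libraries lie below the 4 CFPAC-1 libraries for GPX1, GPX2, GPX3 and SELENOP, while GPX4 spreads from 237 to 627 FPKM in PANC-1 DMSO.

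**Figure D2:**
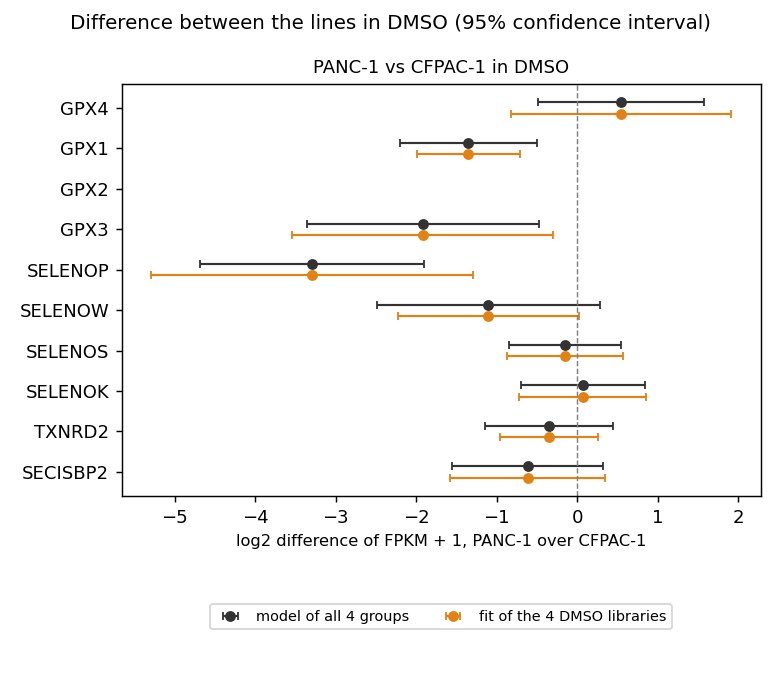
Log2 difference of FPKM + 1 between PANC-1 and CFPAC-1 in DMSO, with 95% confidence intervals, from the model of all 4 groups and from a fit of the 4 DMSO libraries. Negative values mean lower in PANC-1, and GPX2 is not drawn because it was listed at 0 in both PANC-1 DMSO libraries.

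The genes were also ordered by level within each line. In PANC-1 DMSO libraries GPX4 stood first with 432 ± 276 FPKM (SD, n = 2), then SELENOS with 182 ± 51.2 FPKM, GPX1 with 86.0 ± 18.1 FPKM, SELENOK with 77.2 ± 22.6 FPKM and SELENOW with 51.9 ± 25.1 FPKM. GPX4 lay above SELENOS and SELENOS above GPX1 in each library value, while GPX1, SELENOK and SELENOW overlapped as neighbours. TXNRD2 followed with 24.6 ± 1.76 FPKM, GPX3 with 17.6 ± 13.7 FPKM, SECISBP2 with 3.75 ± 1.48 FPKM and SELENOP with 1.54 ± 2.18 FPKM, and GPX2 was listed at 0. TXNRD2 overlapped GPX3 there, and SECISBP2 overlapped SELENOP. In CFPAC-1 DMSO libraries GPX4 had 264 ± 7.76 FPKM, GPX2 235 ± 29.2 FPKM, GPX1 219 ± 15.6 FPKM and SELENOS 199 ± 7.99 FPKM (SD, n = 2). GPX2 and GPX1 overlapped there, and GPX4 lay above both. SELENOW (107 ± 24 FPKM), SELENOK (72.3 ± 10.1 FPKM), GPX3 (59.0 ± 1.68 FPKM), TXNRD2 (31.5 ± 2.21 FPKM), SELENOP (19.0 ± 3.38 FPKM) and SECISBP2 (6.15 ± 1.27 FPKM) came next, without overlap of neighbours. SECISBP2, which serves all selenoproteins, had the lowest level of the 10 genes in CFPAC-1 DMSO libraries and the third lowest in PANC-1 DMSO libraries. Its level stayed under 12 FPKM in all 10 libraries, with a highest value of 11.5 FPKM in PANC-1 IKE replicate 4.

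Shares within a library do not depend on how libraries are scaled. Of the summed FPKM of GPX1 to GPX4, GPX4 held 75.5% to 82.6% in the 4 PANC-1 IKE libraries and 74.5% and 83.3% in the PANC-1 DMSO libraries. In CFPAC-1 it held 27.0% and 28.3% with IKE and 35.0% and 33.0% with DMSO. GPX2 held 40.6% and 41.6% of the sum in CFPAC-1 with IKE and 29.1% and 31.4% with DMSO, against at most 0.254% in PANC-1. GPX2 was thus the largest of the 4 in both CFPAC-1 IKE libraries, and GPX4 in both CFPAC-1 DMSO libraries. The ratio of GPX4 to GPX1 was 3.79 to 6.22 in PANC-1 with IKE and 3.23 and 6.34 with DMSO, while in CFPAC-1 it was 1.05 and 1.17 with IKE and 1.24 and 1.17 with DMSO. The summed level of the 4 peroxidases ranged from 318 to 753 FPKM over the 6 PANC-1 libraries and from 738 to 858 FPKM over the 4 CFPAC-1 libraries. The 9 selenoprotein genes together held 0.0494% to 0.0931% of all FPKM in PANC-1 libraries and 0.0915% to 0.106% in CFPAC-1 libraries. These shares are descriptions over chosen genes and were not tested.

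**Figure D3:**
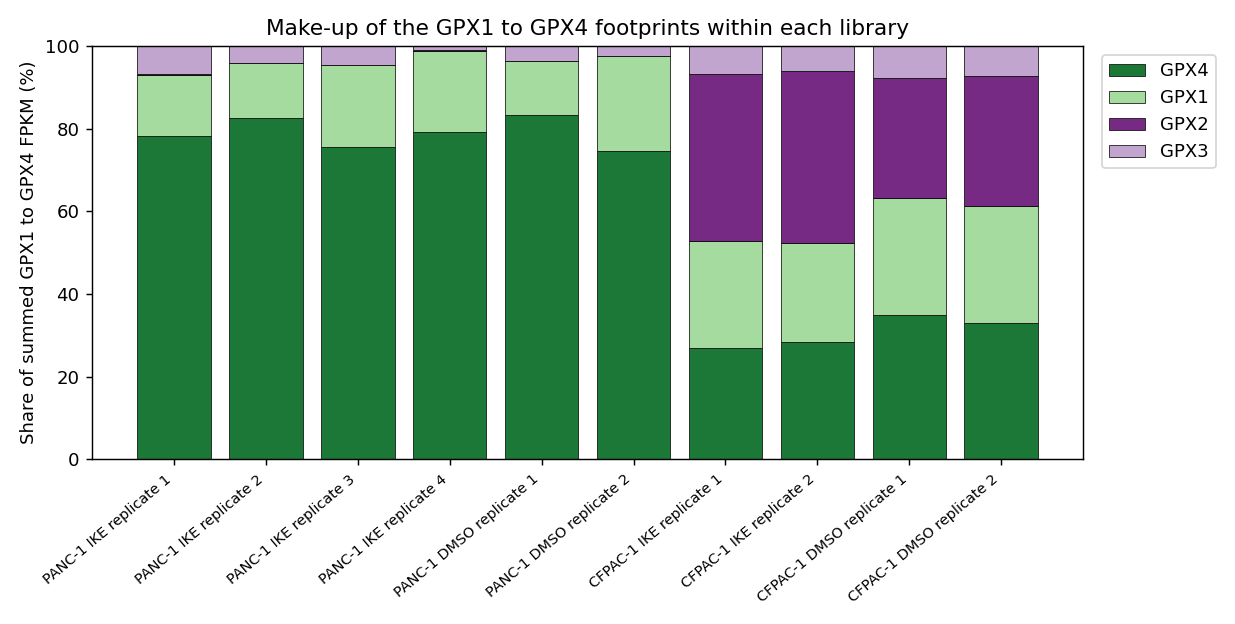
Share of each gene in the summed FPKM of GPX1 to GPX4, in percent, 1 bar per library. GPX4 fills 74.5% to 83.3% of the PANC-1 bars and 27.0% to 35.0% of the CFPAC-1 bars, and GPX2 holds 40.6% and 41.6% in CFPAC-1 IKE against 29.1% and 31.4% in CFPAC-1 DMSO.

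The effect of 10 µM IKE in CFPAC-1 was compared next. Footprint levels combine mRNA amount and translation, which cannot be told apart here, and in such bulk samples fewer cells of a type and less RNA per cell cannot be told apart either. GPX4 had 223 and 243 FPKM in IKE libraries, against 258 and 269 FPKM in DMSO libraries. Both IKE values lay below both DMSO values, by a log2 fold change of -0.18 ± 0.46 (SE; adjusted p = 1) with a 95% interval from -1.21 to 0.85. In a model of CFPAC-1 only, where the spread is that line's own, the interval was -0.40 to 0.05 (limma adjusted p = 0.483), or a fold from 0.756 to 1.03.

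GPX2 had 336 and 357 FPKM with IKE in CFPAC-1, against 215 and 256 FPKM with DMSO. The groups did not overlap, and the log2 fold change was 0.56 ± 0.49 (SE; adjusted p = 1). In the fit of CFPAC-1 alone the 95% interval was 0.23 to 0.90, with an unadjusted p of 0.0105 that did not pass adjustment over all genes (limma adjusted p = 0.356). SELENOP had 25.5 and 30.3 FPKM with IKE, against 16.6 and 21.4 FPKM with DMSO, also without overlap. Its log2 fold change was 0.54 ± 0.63 (SE; adjusted p = 1), and in the fit of CFPAC-1 alone the 95% interval was -0.03 to 1.11 (limma adjusted p = 0.428). Neither of these genes passed the threshold, and both were among those called lower in PANC-1.

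SECISBP2 had 3.79 and 3.53 FPKM with IKE in CFPAC-1, against 5.25 and 7.05 FPKM with DMSO. Its log2 fold change of -0.61 ± 0.42 (SE; adjusted p = 1) did not pass the threshold. SELENOS had 269.65 and 217 FPKM with IKE, against 204 and 193 FPKM with DMSO, a log2 fold change of 0.28 ± 0.31, and GPX3 had a log2 fold change of -0.14 ± 0.65 (SE; adjusted p = 1 for each). Both also had groups that did not overlap. GPX1, SELENOW, SELENOK and TXNRD2 overlapped between the groups, with log2 fold changes from -0.24 to -0.05.

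By limma 0 of the 10 genes were called in CFPAC-1, against 0.00762% of all tested genes, that is 1 gene, and 0 of the 10 had an unadjusted p under 0.05, against 1.48%. For 6 of the 10 genes all IKE values lay on one side of all DMSO values, 3 higher and 3 lower, against 42.6% of all tested genes (20.2% higher and 22.3% lower). In the fit of CFPAC-1 alone GPX2 and SECISBP2 had an unadjusted p under 0.05, against 12.1% of all tested genes, and 0 genes of the whole table were called. The 1 gene called in the model of all groups, ENSG00000128965, was at 63.0 and 75.9 FPKM with IKE, against 3.93 and 2.60 FPKM with DMSO. Its log2 fold change with IKE in PANC-1 was -0.29 ± 0.30 (SE; limma adjusted p = 0.652).

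In PANC-1 with 1 µM IKE, GPX4 was at 291, 590.4, 373 and 580.0 FPKM with IKE and at 627 and 237 FPKM with DMSO. All 4 IKE values lay between the DMSO values. The log2 fold change was 0.19 ± 0.40 (SE; adjusted p = 0.842), with a 95% interval from -0.70 to 1.08, a fold from 0.614 to 2.11. Its direction turned with the libraries used, to -0.51 without DMSO replicate 2 and to -0.23 without IKE replicates 2 and 4. The error of GPX4 in PANC-1 is thus wide, and the interval holds folds on both sides of 1.

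SELENOK was at 53.2, 29.5, 52.1 and 36.1 FPKM with IKE and at 93.2 and 61.2 FPKM with DMSO in PANC-1. All 4 IKE libraries lay below both DMSO libraries. The log2 fold change was -0.85 ± 0.30 (SE), with an unadjusted p of 0.0173 that did not pass adjustment (limma adjusted p = 0.199). In the fit of PANC-1 alone, where the spread is that line's own, the SE was 0.33. The unadjusted p was 0.044 there (limma adjusted p = 0.447). Over the 20 alternatives that gave a value the log2 fold change ranged from -1.15 to -0.51. Those that changed the filter, left out a CFPAC-1 library or took PANC-1 alone could not move it.

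SELENOW was at 73.8, 128, 55.2 and 265 FPKM with IKE and at 69.6 and 34.1 FPKM with DMSO in PANC-1. The groups overlapped, and replicate 4 was the highest. Its log2 fold change was 1.14 ± 0.54 (SE; adjusted p = 0.309), and without one library at a time it ranged from 0.63 to 1.64. It was 0.38 without IKE replicates 2 and 4 and 0.58 with library weights. Within a library the ratio of SELENOW to SELENOS was 2.22 in IKE replicate 4, 0.337 to 0.621 in the other IKE libraries and 0.318 and 0.234 in the DMSO libraries.

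SECISBP2 was at 5.31, 6.59, 5.38 and 11.5 FPKM with IKE and at 4.79 and 2.70 FPKM with DMSO in PANC-1. All 4 IKE libraries lay above both DMSO libraries, by a log2 fold change of 0.76 ± 0.37 (SE; adjusted p = 0.311). GPX1 (0.13 ± 0.33), GPX3 (0.32 ± 0.56), SELENOP (0.12 ± 0.54), SELENOS (-0.14 ± 0.27) and TXNRD2 (0.32 ± 0.31) had log2 fold changes whose 95% intervals hold 0 (SE; adjusted p from 0.623 to 0.932). Without DMSO replicate 2 the values of GPX1, GPX3 and SELENOP were below 0, and SELENOP, near 0 FPKM in this line, was at 1.11 with a pseudocount of 0.1 FPKM.

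GPX2, at or near 0 in every PANC-1 library, had no usable value in this comparison. By limma 0 of the other 9 genes were called in PANC-1, against 0.0152% of all tested genes, and 1 of the 9, SELENOK, had an unadjusted p under 0.05, against 17.6%. The groups did not overlap for 2 of the 9 genes, against 22.4% of all tested genes. SELENOK was lower, against 12.2% of tested genes, and SECISBP2 higher, against 10.2%. The median log2 fold change of the 9 genes was 0.19, against -0.02 over all tested genes. In CFPAC-1 the median was -0.10 over all 10 genes, against -0.01.

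**Figure D4:**
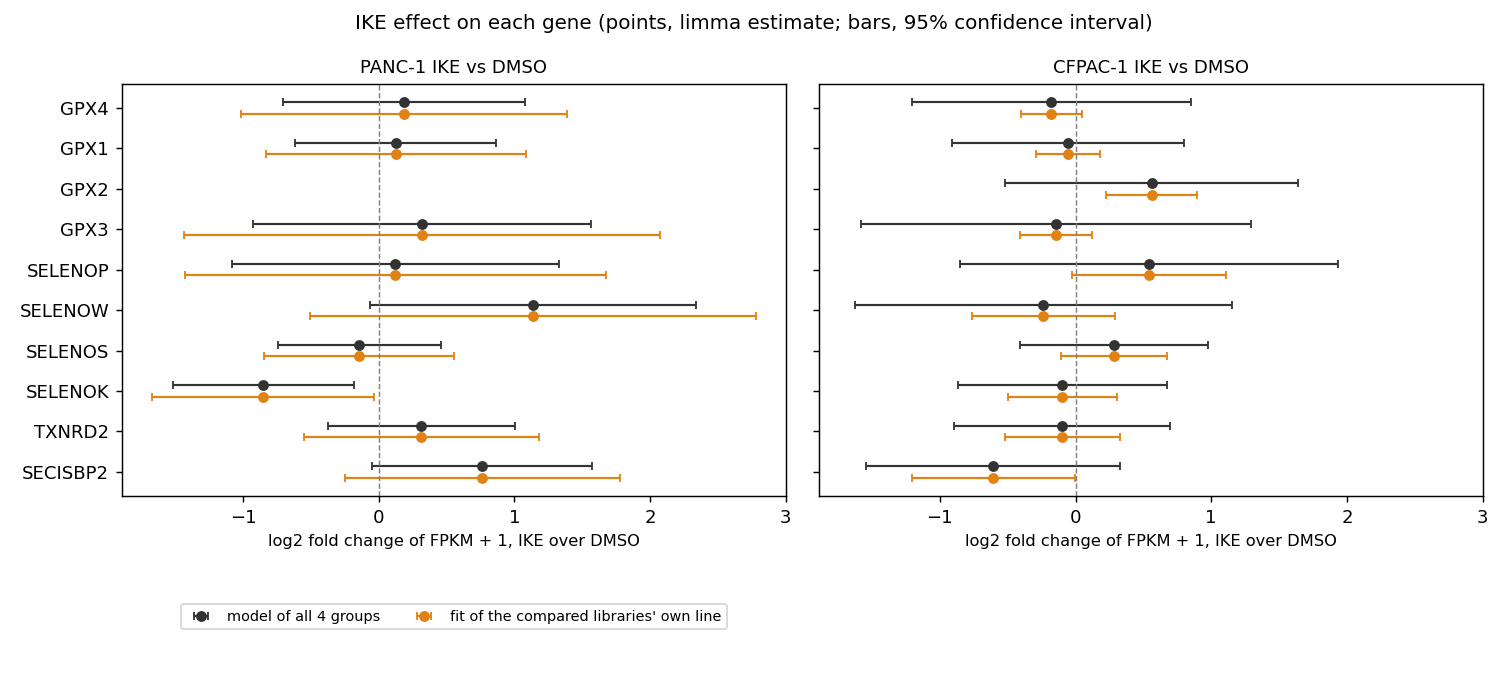
Log2 fold change of FPKM + 1, IKE over DMSO, with 95% confidence intervals, for PANC-1 (1 µM, left) and CFPAC-1 (10 µM, right), from the model of all 4 groups and from a fit of each line alone. The intervals of PANC-1 are wider in its own fit and those of CFPAC-1 narrower, with -0.40 to 0.05 for GPX4, and GPX2 is not drawn for PANC-1 because it was listed at 0 in both DMSO libraries.

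The difference of the IKE effects, PANC-1 minus CFPAC-1, changes line and dose together. By limma 0 of the 9 genes other than GPX2 were called, against 0.0305% of all tested genes (0.00762% higher and 0.0229% lower), and 1 of the 9 had an unadjusted p under 0.05, against 8.41%. That gene was SECISBP2, with a difference of 1.37 ± 0.56 (SE; adjusted p = 0.578). For GPX4 the difference was 0.37 ± 0.61 (SE; adjusted p = 0.903), with a 95% interval from -0.99 to 1.73.

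Among 10693 further genes averaging 5 FPKM or more, those with the pattern most like GPX4 over the 10 libraries were ENSG00000163930, ENSG00000152484 and ENSG00000150779. Likeness was measured as the mean absolute difference of log2(FPKM + 1) after centring each gene on its mean, and was 0.11, 0.14 and 0.14, against a median of 0.69 over these genes. Like GPX4, all 3 were highest in PANC-1 IKE replicates 2 and 4 and DMSO replicate 1, and lower in IKE replicate 1 and DMSO replicate 2. ENSG00000163930, for instance, was at 20.1, 41.2, 24.8 and 49.7 FPKM in PANC-1 IKE replicates 1 to 4 and at 42.9 and 16.8 FPKM in the DMSO replicates. Of the other 9 genes SECISBP2 was nearest to GPX4 (0.37), and GPX2 farthest (4.09). Of the 10693 further genes, 880 were nearer to GPX4 than SECISBP2 was.

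Some values could hold reads of other genes. RefSeq (GRCh38.p14) names 2 pseudogenes of GPX1, 1 of SELENOW and 3 of SELENOK, and the spans of GPX2, SELENOP, TXNRD2 and SECISBP2 overlap those of other protein-coding genes. How such reads were assigned is not stated by the sources at hand, so levels of these genes are uncertain to that extent.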

How the data were processed

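Footprints were measured in 10 libraries, numbered in the labels as biological replicates. In the model of all groups p-values measure a spread pooled over both lines, so CFPAC-1 comparisons carry PANC-1 spread. For GPX4 the SE of the CFPAC-1 IKE effect was 0.463 in that model and 0.078 in the fit of CFPAC-1 alone. The deposited unit is FPKM, according to headers and labels, and the authors' own steps are known only from the submitters' processing notes. These list GRCh38 and the tools STAR, RSEM, fastp and Bowtie2 (2.2.8), among others, with no role or order. Annotation, strand setting and footprint lengths kept were not given in the sources used here. Depth is unknown: low values gave no reliable read counts, so no count test and no counting interval is given.

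Differences were tested with limma (3.58.1, R 4.3.3; mean-variance trend) on log2(FPKM + 1). All 4 groups entered one fit with 6 residual degrees of freedom. It covered 13125 genes averaging 1 FPKM or more. Benjamini-Hochberg adjustment ran over all of them, with calls under 0.05. The procedure was also run on simulated data, which did not copy values listed at 0, and the outcome is not used here. Alternatives changed the pseudocount, filter, scaling, library weights, pairing and libraries, or took each line alone.

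The 10 genes, the lists and the tests were chosen with earlier results of these data known. All 10 genes are described, and the 3 genes with the smallest difference from GPX4 were named by that measure. Gene names came with the list of members. The reference pairs 0 Ensembl IDs with symbols, so 16 other selenoproteins, genes of selenocysteine synthesis and decoding, selenium uptake genes, cysteine-type peroxidases and cell type markers were not analysed here, and the lines were not checked against markers.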

Additional observations from a re-analysis of the deposited data

Results flagged for a closer look

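SECISBP2 lay on opposite sides of DMSO in the lines. All 4 PANC-1 IKE libraries were above both DMSO libraries (5.31 to 11.5 FPKM against 4.79 and 2.70 FPKM), and both CFPAC-1 IKE libraries were below both DMSO libraries (3.79 and 3.53 FPKM against 5.25 and 7.05 FPKM). Of all tested genes 10.2% lay above DMSO without overlap in PANC-1 and 22.3% below it in CFPAC-1. The share doing both was not counted. The difference of the IKE effects, PANC-1 minus CFPAC-1, was 1.37 ± 0.56 on the log2 scale (SE). It depends on the pseudocount at these low levels, and was 1.62 and 0.82 with 0.1 and 5 FPKM. It did not pass the threshold by limma (adjusted p = 0.578, and 0.308 to 1.00 over 19 alternatives).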

How the results depend on the processing

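For 38 log2 differences of single genes, 751 alternative values were computed. Of these, 350 without 1 library and 355 under other settings kept direction and side of the threshold. Many of them could not change direction. Fits without a library outside the compared groups, other filters and fits of the compared libraries alone leave the log2 fold change as it was. The call of SELENOP as lower in PANC-1 held in all 20 alternatives run for it. That of GPX2 did too, but GPX2 passed the filter only through its CFPAC-1 libraries, so this is no support. The GPX3 call was lost with a pseudocount of 0.1 FPKM (limma adjusted p = 0.0579), no filter (0.0691), quantile normalization (0.0566) and the fit of DMSO libraries alone (0.0764). Genes called numbered 1 in CFPAC-1, 2 in PANC-1 and 4 for the difference of IKE effects. In CFPAC-1 the count was 2 with a pseudocount of 0.1 FPKM, 4 with no filter, 0 in the separate fit, 54 with library weights, 0 with the replicate block and 2 without PANC-1 IKE replicates 2 and 4. In PANC-1 it was 5 and 1 with pseudocounts of 0.1 and 5 FPKM, 7 with no filter, 1 with median-ratio scaling, 1 in the separate fit, 0 with library weights, 0 with the replicate block and 1 without IKE replicates 2 and 4. For the difference it was 1 with a pseudocount of 5 FPKM, 2 with no filter, 0 with the replicate block and 1 without those libraries. Leaving out 1 library gave 0 to 4 calls in CFPAC-1, 0 to 3 in PANC-1, 0 to 4 for the difference and 2495 to 5308 between the lines, where the whole set gave 4410. The lowest came without CFPAC-1 DMSO replicate 1, and without replicate 2 it was 2519.

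Sign changes in PANC-1 with IKE were these. Without IKE replicates 2 and 4 the log2 fold change was -0.23 for GPX4, -0.20 for GPX1 and -0.33 for SELENOP, and with the replicate block -0.23 for GPX1 and 0.067 for SELENOS. SELENOP, at 0.12 in the reported fit, was at -0.017 and 1.11 with pseudocounts of 5 and 0.1 FPKM and at -0.12 with library weights. The difference of IKE effects turned to -0.047 for GPX4 and -0.15 for GPX1 without those libraries, -0.17 for GPX1 with the block and 0.55 for SELENOP with a pseudocount of 0.1 FPKM. Without 1 library at a time, PANC-1 ranges that crossed 0 were -0.51 to 0.89 (GPX4), -0.088 to 0.37 (GPX1), -0.51 to 1.15 (GPX3), -0.89 to 1.14 (SELENOP) and -0.43 to 0.15 (SELENOS). In CFPAC-1 they were -0.13 to 0.018 (GPX1), -0.24 to 0.044 (SELENOK) and -0.22 to 0.024 (TXNRD2). For the difference they were -0.33 to 1.07 (GPX4), -0.033 to 0.43 (GPX1), -0.37 to 1.29 (GPX3) and -1.43 to 0.60 (SELENOP). Between the lines they were -0.16 to 1.25 (GPX4), -0.44 to 0.14 (SELENOS) and -0.23 to 0.37 (SELENOK). The cause of these changes was not tested.

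The labels do not say that replicate numbers pair libraries, and deviations of same-numbered IKE and DMSO libraries correlated at 0.05 in CFPAC-1 and -0.21 in PANC-1. With the PANC-1 numbers crossed, an alternative chosen after seeing the data, the counts were 0 in CFPAC-1, 1 in PANC-1 and 0 for the difference. Quantile normalization moved the median difference between the lines by 0.13, and 52.0% of the genes called between the lines were then higher, against 45.0%. No separate fit of each line exists for the difference of effects, and GPX2 has no fold in PANC-1.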
